A study of Mus musculus with 20 samples.

Results

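Cholesterol is built from acetyl-CoA through the mevalonate pathway, in which HMG-CoA is made and turned into mevalonate, isoprenoid units are joined to squalene, and squalene is closed into lanosterol and trimmed to cholesterol. When sterols are scarce in the endoplasmic reticulum, the transcription factor SREBP2 is carried to the Golgi by SCAP and cut there, and its released part turns on the genes of this pathway. INSIG proteins hold SCAP back when sterols are plentiful, and the intestinal epithelium is among the tissues outside the liver that make much of the body's cholesterol. Described here are 7 mouse genes under the control of SREBP2, chosen by name, of 35204 genes in the deposited table. They are 5 enzymes (Hmgcs1, Idi1, Fdps, Sqle and Lss) and 2 regulators (Insig1 and Srebf2). All 7 were among the 16306 genes with enough counts to be tested, with between 815 and 14228 counts per mouse.

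RNA came from the ileum of 20 female C57BL/6 mice, 7 weeks old when the diets began, in 4 groups of 5. Mice had eaten either a control amino acid diet (CD) or the same diet lacking tryptophan (TDD) for 3 weeks, and had either a specific pathogen-free (SPF) flora or received ampicillin, vancomycin, gentamycin, metronidazole and neomycin (ABX). By the study's methods, the drinking water with antibiotics also held sucrose. Whether SPF mice received sucrose is not stated, so an effect of sucrose cannot be told apart from that of the antibiotics. The groups are called CD, TDD, CD+ABX and TDD+ABX, and the first 2 are SPF mice. Each library was made from poly-A RNA of 1 piece of whole ileal tissue, so that fewer cells of a type and less RNA per cell cannot be told apart. The mice of a group were assayed in 1 experiment and the labels do not give their cages, so cage and group cannot be told apart. Levels are library-scaled counts (CPM, after TMM scaling), and q is the p-value of edgeR's quasi-likelihood test adjusted by Benjamini-Hochberg over the 16306 genes tested, with 0.05 as the threshold.

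Genes that mark the distal end of the small intestine did not bear out the ileal label in SPF mice. Fabp6, the cytosolic bile acid carrier that is abundant in the terminal ileum, was at 0.319 to 2.42 CPM in CD mice (median 0.711) and 0.238 to 3.91 CPM in TDD mice (median 0.518). With ABX it was at 2.65 to 144 CPM in CD mice (median 14.6) and 3.34 to 40.8 CPM in TDD mice (median 19.8). Slc10a2, the transporter that takes up bile acids in the ileum, was at 1.38 to 8.80 CPM over the 10 SPF mice and 13.2 to 86.1 CPM over the 10 ABX-treated mice, so that the groups did not overlap. By contrast, Gata4, a transcription factor of the proximal small intestine, was at 75.1 to 118 CPM, and Lct, the lactase of the proximal brush border, at 1470.0 to 3125 CPM over all 20 mice. The enterocyte gene Vil1 was at 2491 to 5132 CPM. The markers of the proximal intestine were added after values of these libraries had been seen. What follows therefore describes libraries labelled ileum, and the part of this pattern in the results was not tested.

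**Figure D1:**
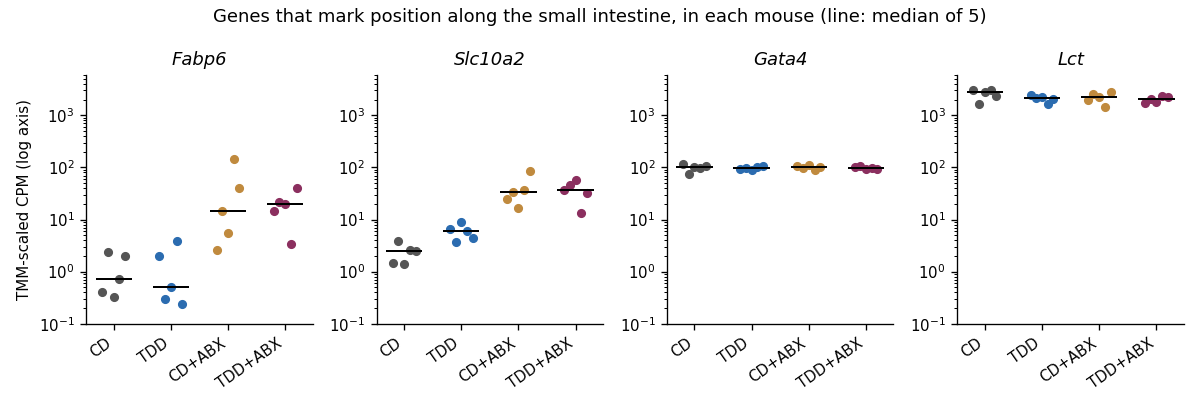
TMM-scaled CPM on a log axis of 4 genes that mark position along the small intestine, in each of 20 mice (points) with the median of 5 mice as a line. Fabp6 and Slc10a2 were higher in both ABX groups, and Gata4 and Lct were at similar levels in all 4 groups.

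The 7 genes lie on 5 chromosomes of GRCm38 (GENCODE M21). Hmgcs1 (ENSMUSG00000093930.2), the enzyme that makes HMG-CoA, lies at chr13:119690379-119708260 on the forward strand. Idi1 (ENSMUSG00000058258.14), which interconverts the 2 isoprenoid building blocks, lies at chr13:8885501-8892451 on the forward strand. Fdps (ENSMUSG00000059743.12), which joins them to farnesyl diphosphate, lies at chr3:89093588-89101959 on the reverse strand. Sqle (ENSMUSG00000022351.14), which oxidises squalene, lies at chr15:59315077-59331192 on the forward strand. Lss (ENSMUSG00000033105.12), which closes the ring to lanosterol, lies at chr10:76531588-76557138 on the forward strand. Insig1 (ENSMUSG00000045294.11), which retains SCAP in the endoplasmic reticulum and is itself turned on by SREBP, lies at chr5:28071363-28078662 on the forward strand. Srebf2 (ENSMUSG00000022463.8), which encodes SREBP2, lies at chr15:82147181-82205379 on the forward strand.

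The promoters of members are shown because SREBP2 binds sterol response elements beside the partners NF-Y and Sp1. Binding was not measured, and its part in the levels described below was not tested. RefSeq promoters matched 5 of the 7 members by symbol, and Sqle and Fdps are named only. The 250 bases before each RefSeq start were searched on both strands for the sterol response element TCACNCCAC, the NF-Y box CCAAT, the Sp1 box GGGCGG and the E-box CACGTG, and no 2 matches in the members overlapped. Below, capitals mark these matches (a match on the other strand reads as its reverse complement), positions are counted back from the RefSeq start, and the printed part stops before the gene starts in GENCODE. All 4 sequences are from GRCm38.p6, forward strand, namely chr13:119690101-119690350 for Hmgcs1, chr10:76531355-76531587 for Lss, chr5:28071162-28071362 for Insig1 and chr15:82147019-82147180 for Srebf2.
Hmgcs1: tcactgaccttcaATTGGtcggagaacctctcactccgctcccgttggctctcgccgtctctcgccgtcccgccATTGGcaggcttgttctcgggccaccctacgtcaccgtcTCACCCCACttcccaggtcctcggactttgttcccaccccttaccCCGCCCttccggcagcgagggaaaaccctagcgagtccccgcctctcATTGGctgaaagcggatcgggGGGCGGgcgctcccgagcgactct
Lss: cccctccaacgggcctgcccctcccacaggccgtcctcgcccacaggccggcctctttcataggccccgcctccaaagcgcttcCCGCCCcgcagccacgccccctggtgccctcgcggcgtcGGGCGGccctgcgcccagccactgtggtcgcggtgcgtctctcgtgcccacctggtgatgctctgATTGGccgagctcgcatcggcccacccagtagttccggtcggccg
Insig1: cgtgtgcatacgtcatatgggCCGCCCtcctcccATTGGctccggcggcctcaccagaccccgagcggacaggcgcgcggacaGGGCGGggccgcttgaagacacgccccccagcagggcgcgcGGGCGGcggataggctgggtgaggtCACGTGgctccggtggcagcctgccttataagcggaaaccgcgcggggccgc
Srebf2: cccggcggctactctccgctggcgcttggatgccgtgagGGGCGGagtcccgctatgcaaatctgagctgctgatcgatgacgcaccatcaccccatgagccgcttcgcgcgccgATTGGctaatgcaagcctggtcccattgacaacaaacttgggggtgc

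The Hmgcs1 promoter was the one of the 5 with an exact match to the letters of the sterol response element, at positions -137 to -129. Around it lay 3 NF-Y boxes and 2 Sp1 boxes. Lss had 1 NF-Y box and 2 Sp1 boxes. Insig1 had 1 NF-Y box, 3 Sp1 boxes and the only E-box, at -101 to -96. Srebf2 had 1 NF-Y box and 4 Sp1 boxes, of which 3 lie outside the printed part, and Idi1, whose matches all lie beyond the part that could be printed, had 2 NF-Y boxes and 1 Sp1 box. Thus all 5 members held an NF-Y box and an Sp1 box, those of Idi1 within the gene as annotated in GENCODE. Among all 32851 promoters of the same length, 33.8% held an NF-Y box, 32.7% an Sp1 box, 1.05% the sterol response element and 6.02% the E-box. The share that held both an NF-Y box and an Sp1 box was not counted. The searched bases of the 5 members were 51.2% (Idi1) to 73.6% (Lss) G or C, and promoters of like content were not compared. A match describes letters and not a bound site. Elements that differ from these letters or lie outside the searched bases were not counted, so a promoter without a match may still hold one.

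TDD feeding and ABX treatment each raised the enzymes, by less than 2-fold, and the levels were highest in mice that had both. Summed over the 7 genes, the level was 499 ± 76.2 CPM in CD, 647 ± 63.3 in TDD, 687 ± 29.2 in CD+ABX and 884 ± 74.2 in TDD+ABX mice (SD, n = 5). TDD feeding raised 5 of the 7 genes in SPF mice, where 6.65% of all genes tested were higher at the same threshold, and 2 of the 7 in ABX-treated mice, where 0.626% were. ABX treatment raised 6 of the 7 in CD mice (5.26% of all genes) and 6 of the 7 in TDD mice (7.14% of all genes). None of the 7 was lower in any of the 4 comparisons, where 7.71%, 1.02%, 7.37% and 8.22% of all genes were. With an added limit of a 2-fold change, none was called, where 1.83%, 0.307%, 2.25% and 1.63% of all genes were. The 4 comparisons share groups: CD mice are the reference of the first and the third, and the same TDD mice enter the first and the fourth.

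**Figure D2:**
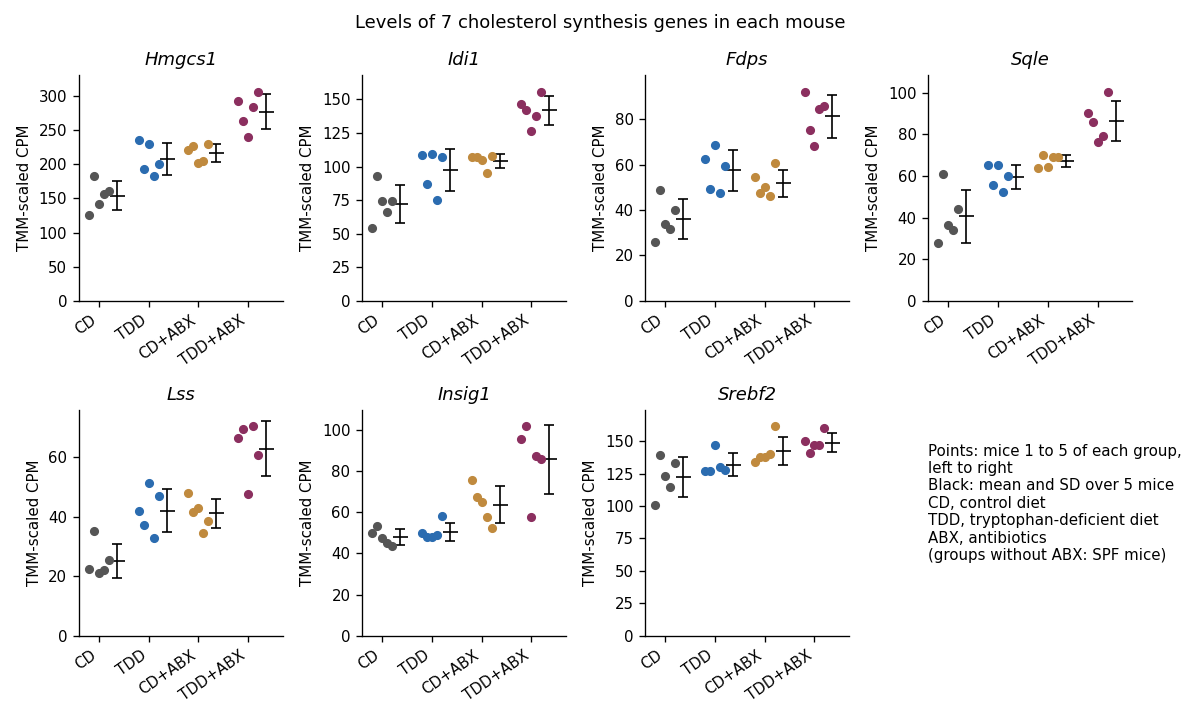
TMM-scaled CPM of the 7 genes in each of 20 mice (points, mice 1 to 5 from left to right in each group), with the mean and SD of 5 mice in black and axes that start at 0. The 5 enzymes in the first 5 panels were lowest in CD mice and highest in TDD+ABX mice, whereas Insig1 in TDD mice lay near its level in CD mice and Srebf2 spanned a narrow range.

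Hmgcs1, the enzyme at the entry to the pathway, had 126, 183, 143, 157 and 161 CPM in CD mice 1 to 5 and 236, 193, 230.1, 183 and 199.9 CPM in TDD mice 1 to 5. With ABX it had 221, 227, 201, 204 and 229.6 CPM in CD mice and 292, 263, 239.9, 283 and 306 CPM in TDD mice. CD mouse 2 reached the lower edge of the TDD group, whereas every CD+ABX mouse lay above every CD mouse and every TDD+ABX mouse above every CD+ABX and TDD mouse. TDD feeding raised it 1.35-fold (95% CI 1.18 to 1.55) in SPF mice (log2 fold change 0.44, SE 0.09, q = 0.00452). In ABX-treated mice the change was of like size but did not pass the threshold (log2 fold change 0.36, SE 0.09, q = 0.0604). ABX treatment raised it 1.41-fold (95% CI 1.23 to 1.61) in CD mice (log2 fold change 0.49, SE 0.09, q = 0.00247) and 1.33-fold (95% CI 1.16 to 1.52) in TDD mice (log2 fold change 0.41, SE 0.09, q = 0.00820).

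Idi1, the isomerase that readies isoprenoid units for joining, had 54.2, 92.9, 74.5, 66.0 and 74.7 CPM in CD mice and 109, 86.8, 109.6, 74.9 and 107 CPM in TDD mice. With ABX, it had 107, 107, 105, 95.6 and 108 CPM in CD mice and 147, 142, 127, 138 and 156 CPM in TDD mice. The SPF diets overlapped, since TDD mice 2 and 4 lay below CD mouse 2, while the ABX groups were apart from each other and from the SPF group on the same diet. It rose with TDD feeding in SPF mice (log2 fold change 0.43, SE 0.12, q = 0.0198), a call that was lost without CD mouse 1, TDD mouse 3 or TDD mouse 5, with q up to 0.0655, as well as with limma on log2(TPM + 1) or with the 2 groups fitted alone (q up to 0.0974). In ABX-treated mice the fitted change was as large (log2 fold change 0.44, SE 0.12, q = 0.0610) and missed the threshold. Treatment with ABX raised it 1.44-fold (95% CI 1.21 to 1.71) in CD mice (q = 0.00685, edgeR) and 1.46-fold (95% CI 1.23 to 1.73) in TDD mice (q = 0.00610, edgeR).

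Fdps, the synthase at the branch between sterols and other isoprenoids, had 26.0, 48.7, 33.8, 31.6 and 40.0 CPM in CD mice and 62.3, 49.3, 68.6, 47.3 and 59.6 CPM in TDD mice. With ABX, the values were 54.4, 47.3, 50.0, 46.4 and 60.9 CPM in CD mice and 92.2, 75.4, 68.1, 84.4 and 85.9 CPM in TDD mice. Again CD mouse 2 overlapped the TDD group, and the ABX-treated diets did not overlap. Fdps was raised by TDD feeding both in SPF mice (1.59-fold (95% CI 1.30 to 1.96), log2 fold change 0.67, SE 0.14, q = 0.00383) and in ABX-treated mice (1.57-fold (95% CI 1.28 to 1.92), log2 fold change 0.65, SE 0.14, q = 0.0252). The call in ABX-treated mice was lost when any of CD+ABX mice 2 to 4 or of TDD+ABX mice 1, 4 and 5 was left out, with q up to 0.0795. ABX treatment raised it by 0.52 on the log2 scale in CD mice (q = 0.0198, edgeR) and 0.50 in TDD mice (q = 0.0228, edgeR). The first of these was lost without CD+ABX mouse 5 (q = 0.0559), and the second without TDD mouse 2 or 4 or TDD+ABX mouse 1 (q up to 0.0611).

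Sqle, the monooxygenase that commits squalene to sterols, had 28.1, 61.1, 36.4, 34.0 and 44.1 CPM in CD mice and 65.2, 55.5, 65.2, 52.3 and 60.0 CPM in TDD mice. In the ABX groups it had 63.8, 70.0, 64.1, 69.2 and 69.1 CPM on CD and 90.5, 86.0, 76.5, 79.3 and 101 CPM on TDD. CD mouse 2, at the level of TDD mice, stood apart from the other CD mice, which lay at or below 44.1 CPM, and the 2 ABX groups did not overlap. TDD feeding raised Sqle 1.46-fold (95% CI 1.19 to 1.80) in SPF mice (log2 fold change 0.55, SE 0.14, q = 0.0152), and the log2 fold change went from 0.44 without CD mouse 1 to 0.73 without CD mouse 2. Among ABX-treated mice the level was 1.29-fold (95% CI 1.05 to 1.58) higher without passing the threshold (log2 fold change 0.36, SE 0.14, q = 0.230). ABX treatment raised it 1.65-fold (95% CI 1.34 to 2.04) in CD mice (q = 0.00336, edgeR) and 1.45-fold (95% CI 1.18 to 1.79) in TDD mice (q = 0.0181, edgeR).

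Lss, the cyclase that forms lanosterol, had 22.5, 35.1, 20.95, 22.0 and 25.6 CPM in CD mice and 41.9, 37.3, 51.2, 32.9 and 47.1 CPM in TDD mice. With ABX, CD mice had 47.9, 41.8, 43.0, 34.6 and 38.5 CPM and TDD mice 66.4, 69.6, 47.7, 70.5 and 60.7 CPM. TDD mouse 4 lay below CD mouse 2, and TDD+ABX mouse 3 lay far below the other TDD+ABX mice and at the upper edge of the CD+ABX group. Lss had the highest fitted fold change of the members under TDD feeding in SPF mice (1.67-fold (95% CI 1.35 to 2.07), log2 fold change 0.74, SE 0.15, q = 0.00260), and it rose in ABX-treated mice as well (1.53-fold (95% CI 1.24 to 1.89), log2 fold change 0.61, SE 0.15, q = 0.0395). The latter call was lost without any 1 of CD+ABX mice 2 to 5 or TDD+ABX mice 1, 2, 4 or 5, with q up to 0.112. With ABX it rose by 0.71 on the log2 scale in CD mice (q = 0.00450, edgeR) and by 0.58 in TDD mice (q = 0.0134, edgeR).

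Insig1, the sterol-sensing brake on SREBP processing, had 50.0, 53.3, 47.4, 45.2 and 43.7 CPM in CD mice and 49.8, 48.1, 47.8, 48.9 and 58.1 CPM in TDD mice, with ranges that overlapped widely. With ABX it had 75.6, 67.3, 65.1, 57.6 and 52.6 CPM in CD mice and 95.6, 102, 57.5, 87.5 and 85.8 CPM in TDD mice, where TDD+ABX mouse 3 was the exception at the level of CD+ABX mice. TDD feeding did not pass the threshold in SPF mice (log2 fold change 0.08, 95% CI -0.18 to 0.33, q = 0.722, edgeR) or in ABX-treated mice (log2 fold change 0.43, SE 0.12, q = 0.0794). Without TDD+ABX mouse 3 the latter was 0.54 (q = 0.0089, edgeR). ABX treatment raised it 1.69-fold (95% CI 1.42 to 2.02) in TDD mice (log2 fold change 0.76, SE 0.12, q = 0.000935) and 1.33-fold (95% CI 1.12 to 1.58) in CD mice (log2 fold change 0.41, SE 0.12, q = 0.0314). The call in CD mice was lost without CD mouse 3, 4 or 5 or CD+ABX mouse 1, 2 or 3, with q up to 0.0772, and with upper-quartile scaling or limma on log2(TPM + 1) (q up to 0.0604).

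Srebf2, which encodes the transcription factor itself, lay between 101 and 162 CPM in all 20 mice. It had 101, 139.6, 124, 115 and 134 CPM in CD mice and 127, 127, 147, 130.0 and 128 CPM in TDD mice. In ABX-treated mice it had 134, 138, 138, 140.4 and 162 CPM on CD and 150.1, 141, 147, 147 and 159.9 CPM on TDD. All neighbouring groups overlapped, and no comparison passed the threshold in edgeR's fit of the 4 groups. The 95% confidence interval of the log2 fold change was -0.05 to 0.27 for TDD feeding in SPF mice and -0.09 to 0.23 in ABX-treated mice. For ABX treatment it was 0.06 to 0.38 in CD mice (q = 0.0685, edgeR) and 0.02 to 0.34 in TDD mice (q = 0.125, edgeR), and without CD mouse 2 the change in CD mice passed (log2 fold change 0.27, q = 0.0208). With DESeq2 the change in CD mice passed as well (q = 0.0276), as did that in TDD mice when the 2 groups were fitted alone (q = 0.0413, edgeR). The cleavage that activates SREBP2 is not measured by RNA levels.

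**Figure D3:**
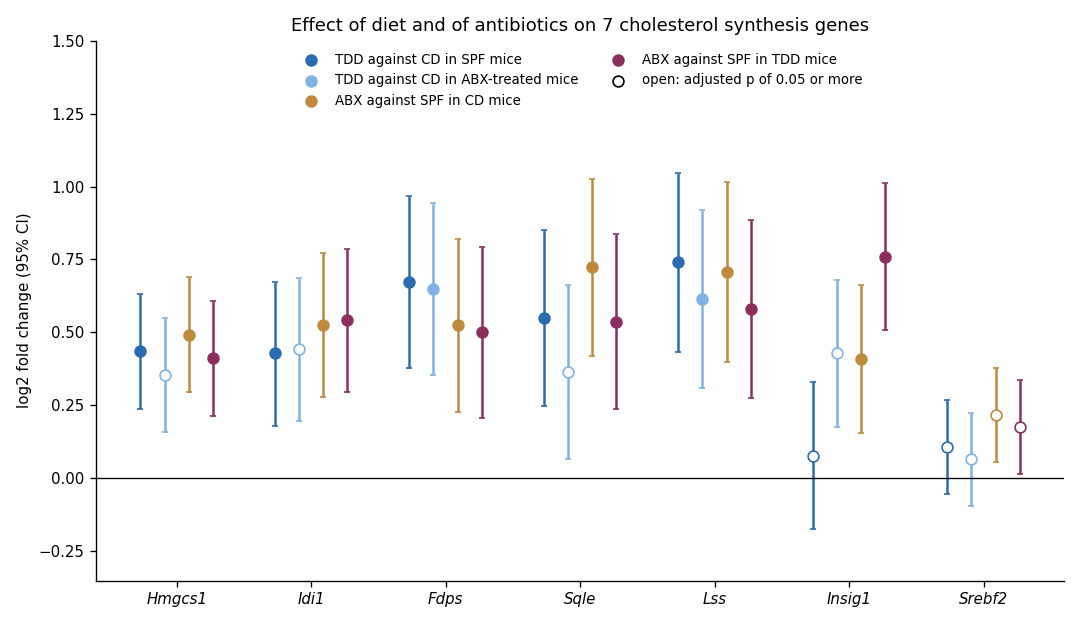
Log2 fold changes of the 7 genes with 95% confidence intervals in 4 comparisons, each over 5 mice against 5 mice. Filled points had an adjusted p under 0.05 (edgeR's quasi-likelihood test), which was the case for 5, 2, 6 and 6 genes in the order of the legend.

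Whether the effect of the diet depended on the flora was tested as an interaction. No member passed, where 0.0368% of all genes did, and none had an unadjusted p under 0.05, where 8.87% of all genes did. For the 5 enzymes the diet effect with ABX differed from that in SPF mice by -0.19 (Sqle) to 0.01 (Idi1) on the log2 scale. The widest of their intervals was that of Lss, -0.56 to 0.31. Insig1 had the lowest p of the members, with a difference of 0.35 (95% CI -0.01 to 0.71, unadjusted p = 0.0541, q = 0.577, edgeR's quasi-likelihood test). It follows that the calls made for Hmgcs1, Idi1 and Sqle with the SPF flora but missed with ABX are not shown to differ between the 2 settings.

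The members whose groups did not overlap were in part others than those called. In the diet comparison in SPF mice, no member had groups that did not overlap, where 4.68% of all genes were higher in every TDD mouse than in every CD mouse. In ABX-treated mice Hmgcs1, Idi1, Fdps and Sqle were, against 2.35% of all genes. Between CD and CD+ABX mice, and between TDD and TDD+ABX mice, Hmgcs1, Idi1 and Sqle were, against 3.86% and 5.97% of all genes. CD mouse 2 decided part of this: it was the highest of the CD mice for all 7 members, and CD mouse 1 was the lowest for 5. Without CD mouse 2, all 5 enzymes were apart between the SPF diets (8.45% of all genes) and all 7 members between CD and CD+ABX mice (6.49%). Without CD mouse 1 these counts were 0 and 3 (5.27% and 4.40%). CD mouse 2 also had the lowest summed level of the 8 enterocyte markers among CD mice (7766 CPM, others 11889 to 13962) and the highest of the 6 smooth muscle markers (2508 CPM, others 472 to 1506). The part of this in its high levels was not tested. TDD and CD+ABX mice overlapped in range for each of the 5 enzymes. TDD+ABX mouse 3 was the lowest of its group for 6 of the 7 members.

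Per transcript length (TPM, mean of 20 mice), Hmgcs1 was the most abundant member at 89.2 TPM. Fdps followed at 66.7 TPM, ahead of Idi1 at 47.0 and Srebf2 at 46.2 TPM. Insig1 was at 34.8, Sqle at 30.5 and Lss at 16.3 TPM. Idi1 and Srebf2 differed by less than their spread over mice. From CD to TDD+ABX mice the mean of Hmgcs1 went from 64.2 to 119 TPM, that of Fdps from 42.9 to 98.5 TPM and that of Lss from 8.97 to 25.2 TPM. A main transcript held most of the TPM of 6 members in every group, for example 84.8% to 86.9% for Hmgcs1-201 and 94.1% to 95.7% for Sqle-201 (group means). The share was lowest for Srebf2-201, 61.3% to 63.8%, and a transcript annotated as a retained intron of Srebf2 held 28.4% to 32.4%. Lss was split more evenly, with 33.3% to 38.3% in its coding transcript Lss-201 and wide variation between mice (24.9% to 47.0%).

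Of 13 other enzymes of the pathway, all of which were tested, 12, 12, 13 and 12 had a log2 fold change above 0 in the 4 comparisons. TDD feeding raised 8 of the 13 in SPF mice (median log2 fold change 0.40, where the median of all genes was 0.01) and 2 of the 13 in ABX-treated mice (median 0.32), where 6.65% and 0.626% of all genes were higher. ABX treatment raised 12 of the 13 in CD mice (median 0.45) and 8 of the 13 in TDD mice (median 0.33), where 5.26% and 7.14% of all genes were higher. None fell in any of the 4 comparisons. In the test of the interaction none of the 13 passed, where 0.0368% of all genes did, and the median difference was -0.06. Msmo1 had the lowest p of the 13 (-0.41, unadjusted p = 0.0260, q = 0.463, edgeR's quasi-likelihood test). The calls made under TDD feeding in SPF mice only are thus not shown to differ between the 2 settings. The count of 8 under TDD feeding in SPF mice was 5 when the 2 groups were fitted alone. The count of 12 was 7 without CD mouse 1, 3 or 4 or CD+ABX mouse 5, and under ABX in TDD mice the count of 8 was 4 without TDD mouse 2 and 5 without TDD mouse 4. The count of 2 was 0 without any of CD+ABX mice 1, 3 and 4 or TDD+ABX mice 1, 2, 3 and 5. It was 1 when any of 6 further mice was left out, namely mouse 3 or 4 on CD, mouse 2 or 5 on TDD, mouse 2 on CD+ABX or mouse 4 on TDD+ABX. The list was chosen with results of these libraries known.

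In SPF mice the highest changes under TDD feeding were those of Msmo1, a sterol C4-methyl oxidase (log2 fold change 0.81, q = 0.000234), Mvk, mevalonate kinase (log2 fold change 0.76, q = 0.00489), Mvd, a decarboxylase after Mvk and Pmvk (log2 fold change 0.66, q = 0.0227), and Fdft1, squalene synthase (log2 fold change 0.60, q = 0.0129). Msmo1 went from 54.9 ± 9.18 to 96.4 ± 14.5 CPM (SD, n = 5). In ABX-treated mice the calls were Cyp51, lanosterol demethylase (log2 fold change 0.56, q = 0.0423), and Hsd17b7 (log2 fold change 0.32, q = 0.0260).

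With ABX in CD mice, the highest changes were those of Mvk (log2 fold change 0.90, q = 0.00188), Mvd (log2 fold change 0.59, q = 0.0419), Msmo1 (log2 fold change 0.57, q = 0.00517) and Cyp51 (log2 fold change 0.56, q = 0.0118). In TDD mice they were those of Mvk (log2 fold change 0.59, q = 0.0199), Cyp51 (log2 fold change 0.51, q = 0.0176), Tm7sf2 (log2 fold change 0.51, q = 0.00236) and Acat2, the thiolase of the first step (log2 fold change 0.41, q = 0.0195). The 5 enzymes that did not pass under TDD feeding in SPF mice were Acat2 (log2 fold change 0.25, q = 0.147), Tm7sf2 (log2 fold change 0.02, q = 0.936), Ebp (log2 fold change -0.14, q = 0.138), Sc5d (log2 fold change 0.17, q = 0.327) and Dhcr7 (log2 fold change 0.10, q = 0.449). With ABX in CD mice, Tm7sf2, Ebp and Dhcr7 rose by 0.50 (q = 0.00215), 0.26 (q = 0.00707) and 0.32 (q = 0.0115, edgeR). The difference between treatments was not tested for single genes. Sc5d, a late desaturase, passed in no comparison.

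**Figure D4:**
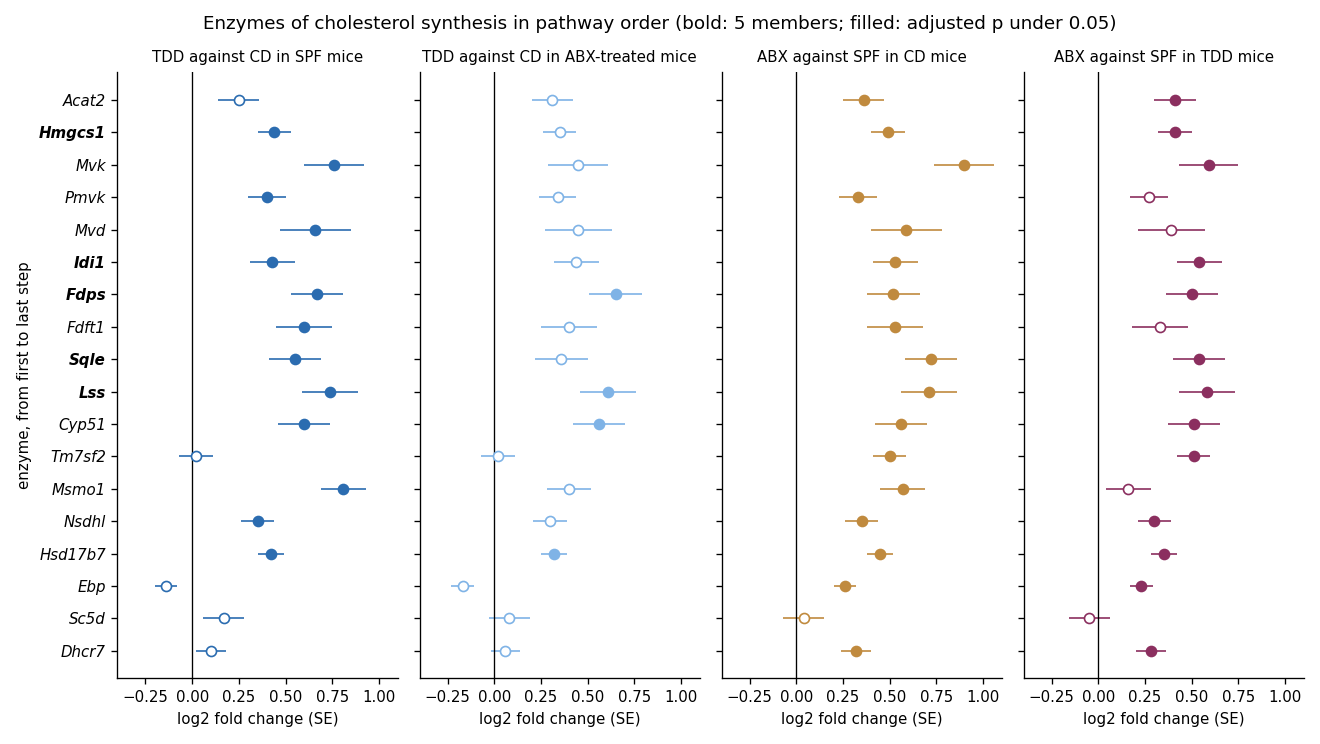
Log2 fold changes with SE of 18 enzymes of cholesterol synthesis, in pathway order from top to bottom, in 4 comparisons of 5 mice against 5 mice. The 5 members are in bold and filled points had an adjusted p under 0.05. After TDD feeding the filled points end at Hsd17b7, whereas with ABX they reach Dhcr7 in both diets.

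Among 6 genes of sterol uptake and transport, Scarb1, the HDL receptor, fell with ABX in both diets (log2 fold change -0.76, q = 0.00611 in CD and log2 fold change -0.55, q = 0.0309 in TDD mice) and none rose. Of all genes, 7.37% and 8.22% fell in these comparisons. TDD feeding raised Mylip, a ubiquitin ligase that is turned on by LXR (log2 fold change 0.51, q = 0.0230), and Stard4, a sterol carrier (log2 fold change 0.28, q = 0.0499), in SPF mice, where 6.65% of all genes were higher. The call of Stard4 was lost under another scaling (RLE). None of the 6 passed under TDD feeding in ABX-treated mice. Npc1l1, the absorber of dietary cholesterol, passed in no comparison.

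Of 7 genes that process or control SREBP, 2 fell and none rose in each comparison with CD mice as reference, where 7.71% and 7.37% of all genes fell. Srebf1, which encodes SREBP1, fell with TDD feeding in SPF mice from 99.3 ± 11.2 to 76.2 ± 8.98 CPM (SD, n = 5, log2 fold change -0.38, q = 0.00963, edgeR), where its paralog Srebf2 was at 0.11 (q = 0.387). It also fell with ABX in CD mice (log2 fold change -0.49, q = 0.00250). Mbtps1, the protease of the first SREBP cut, fell in the same comparisons (log2 fold change -0.32, q = 0.00327 and log2 fold change -0.22, q = 0.0316). None of the 7 passed in the other 2 comparisons.

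Of 8 genes of sterol efflux and esterification, none passed under TDD feeding in either setting. With ABX, 3 fell and 1 rose in CD mice and 5 fell and 1 rose in TDD mice, with medians of -0.25 and -0.26, where 7.37% and 8.22% of all genes fell. Abcg8, of the transporter pair that returns sterols to the lumen, fell from 423 ± 102 to 236 ± 43.1 CPM in CD mice (log2 fold change -0.84, q = 0.00362; SD, n = 5, edgeR). In TDD mice it went from 388 ± 75.3 to 230.2 ± 35.2 CPM (log2 fold change -0.75, q = 0.00732). Its partner Abcg5 fell likewise (log2 fold change -0.72, q = 0.00670 and log2 fold change -0.69, q = 0.00853). Abca1, which loads cholesterol onto HDL, fell in TDD mice (log2 fold change -0.83, q = 0.00396) and was at -0.48 in CD mice (q = 0.0671). Nr1h3, the sterol-sensing receptor LXR alpha, rose in both (log2 fold change 0.27, q = 0.0228 and log2 fold change 0.52, q = 0.000432). Nr1h2, LXR beta, fell in both (log2 fold changes -0.20 and -0.19), calls that RLE scaling did not keep.

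Fatty acid synthesis genes gave few calls. With TDD feeding in SPF and ABX-treated mice, 6.65% and 0.626% of all genes rose and 7.71% and 1.02% fell. With ABX in CD and TDD mice, 5.26% and 7.14% rose and 7.37% and 8.22% fell. Of 12 listed, only the elongase Elovl6 passed under TDD feeding, and it fell both in SPF mice (log2 fold change -0.57, q = 0.000771) and in ABX-treated mice (log2 fold change -0.46, q = 0.0212). With ABX, the desaturase Scd2 rose in CD mice from 52.8 ± 21.6 to 139 ± 16.4 CPM (log2 fold change 1.40, q = 0.00215) and in TDD mice (log2 fold change 1.80, q = 0.000556), and Elovl6 rose in TDD mice (log2 fold change 0.40, q = 0.0113). Fasn, fatty acid synthase, was at -0.13 under TDD feeding in SPF mice (q = 0.805, edgeR). In the branch to isoprenoids other than sterols, 8 genes gave few calls: Pdss2, of ubiquinone side chain synthesis, fell under TDD feeding in SPF mice (log2 fold change -0.25, q = 0.0371). With ABX, Nus1 rose in CD mice (log2 fold change 0.24, q = 0.0442), and Pdss1 (log2 fold change 0.34, q = 0.0183) and Pdss2 (log2 fold change 0.24, q = 0.0427) rose in TDD mice.

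Over 20 mice, the 5 enzymes were closely correlated in log2 CPM (Pearson's r 0.91 to 0.97 over 10 pairs, median 0.96), which contains the group differences. The deviations from the group means, which leave these out, had r of 0.62 to 0.89 (median 0.83). Insig1 had r of 0.70 to 0.82 with the 5 enzymes over 20 mice, but 0.18 to 0.64 (median 0.22) in the deviations, and -0.24 with Srebf2. Srebf2 had r of 0.33 to 0.79 with the enzymes in the deviations (median 0.67). These values are descriptions over mice that share a fit and a scaling, and CD mice 1 and 2 contribute to all of them.

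**Figure D5:**
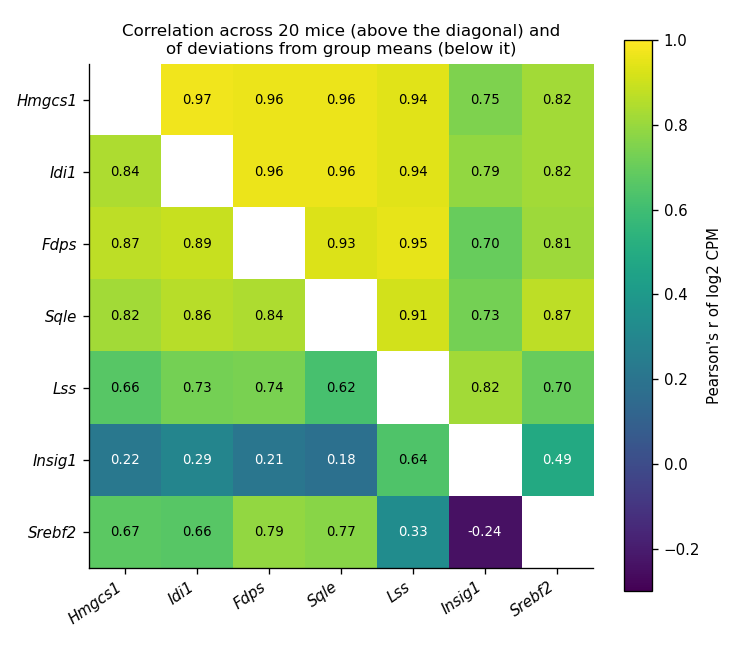
Pearson's r of log2 CPM between pairs of the 7 genes over 20 mice (above the diagonal) and of the deviations from the 4 group means (below it). The 5 enzymes form a block of high values on both sides, and the row of Insig1 below the diagonal holds low values except with Lss.

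Genes most like the members were ranked by r with the mean z-score of the 7 over 20 mice, among 16295 other genes. The first 10 were Cyp51 (0.976), Mvk (0.967), Acat2 (0.947), Nsdhl (0.943), Mvd (0.942), Fdft1 (0.938), Aacs (0.937), Pmvk (0.929), Hsd17b7 (0.915) and Plce1 (0.899). Of these, 8 were listed enzymes of the pathway, while Aacs, acetoacetyl-CoA synthetase, and Plce1, a phospholipase C, were in no list. Within the first 100 lay 10 of the 13 listed enzymes. Ebp (0.299) and Sc5d (0.109) were not alike. In the deviations from group means, the first 10 held Cyp51, Mvd, Fdft1, Acat2, Mvk, Dhcr7 and Aacs. They also held Unc45b, a chaperone of muscle myosin, Tspan11 and 2310009B15Rik, which had r of 0.201, 0.093 and 0.220 over the 20 mice.

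Markers of other cell types in the tissue moved with the treatments, and their part in the results was not tested. The shares of all genes that rose and fell were 6.65% and 7.71% with TDD feeding in SPF mice, and 0.626% and 1.02% in ABX-treated mice. They were 5.26% and 7.37% with ABX in CD mice, and 7.14% and 8.22% in TDD mice. The same shares apply to the counts of the next paragraph. Of 8 enterocyte markers, Fabp6, Slc10a2 and Fabp2 rose with ABX in both diets and none passed under TDD feeding. Slc10a2 had a median of 2.44 CPM (1.38 to 3.89) in CD and 5.95 CPM (3.69 to 8.80) in TDD mice. The summed level of the 8 markers was 7766 to 13962 CPM in CD, 10799 to 12270 in TDD, 13262 to 21935 in CD+ABX and 14799 to 17045 CPM in TDD+ABX mice. Of 9 crypt proliferation markers, Mcm2 fell with TDD feeding in SPF mice, and Pcna, Mcm2 and Birc5 rose with ABX in TDD mice. With TDD feeding, 0 of the 9 had a log2 fold change above 0 in SPF mice (median -0.26) and 7 in ABX-treated mice (median 0.07). With ABX, 4 did in CD mice (median -0.02) and 9 in TDD mice (median 0.35). The sums of these markers were 979 to 1379, 637 to 1067, 621 to 1216 and 849 to 1294 CPM in the same order of groups. Of 5 markers of the proximal intestine none passed, with sums of 2140.0 to 4587, 2766 to 3687, 1987 to 3556 and 2617 to 2912 CPM.

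Of 6 T cell markers, Cd8b1 fell with TDD feeding in SPF mice, where 7.71% of all genes fell. With ABX, 5 fell in CD mice (7.37% of all genes) and Cd3e, Cd3g and Cd4 fell in TDD mice (8.22%). The sums of the T cell markers were 30.5 to 94.0 CPM in CD, 26.4 to 40.1 in TDD, 17.2 to 22.4 in CD+ABX and 15.8 to 28.3 CPM in TDD+ABX mice. Of 6 macrophage and dendritic cell markers, Adgre1, Csf1r and Cd68 fell with TDD feeding in SPF mice, 4 fell with ABX in CD mice, and Csf1r and Lyz2 fell in TDD mice, with sums of 167 to 217, 83.1 to 171, 109 to 127 and 89.0 to 118 CPM. Of 5 plasma cell markers, Jchain, Mzb1 and Xbp1 rose with TDD feeding in SPF mice, while with ABX 2 rose and 2 fell in CD mice and 1 rose and 3 fell in TDD mice (sums of 473 to 709, 600.0 to 956, 459 to 619 and 481 to 623 CPM). None of the 6 B cell markers passed, but 7 mice stood apart from the rest. The sum of these markers was 67.0 to 150.1 CPM in CD mice 2 and 3, TDD mice 2 to 5 and TDD+ABX mouse 5, and 24.3 CPM or less in the other 13 mice. Their median log2 fold change was 1.23 and 2.66 for TDD feeding in SPF and ABX-treated mice, and -2.85 and -1.55 for ABX in CD and TDD mice. None of 6 smooth muscle markers (472 to 2508 CPM) or 5 adipocyte markers (55.9 to 121 CPM) passed. The median log2 fold change of the adipocyte markers was -0.27 and -2.73 for TDD feeding in SPF and ABX-treated mice. It was 0.11 and -1.74 for ABX in CD and TDD mice. The medians of the smooth muscle markers were -0.06, -0.37, 0.30 and -0.06 in the same order. Of 6 markers of enteric neurons and glia, Ret fell with ABX in TDD mice (13.4 to 37.6 CPM). No marker of any of these lists passed under TDD feeding in ABX-treated mice, which does not show that none changed.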

How the data were processed

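RNA from the ileum of 20 mice in 4 groups was sequenced by the authors after poly-A enrichment. Reads were assigned to the mouse transcriptome (GRCm38) with kallisto 0.44.0, which the study's methods and the submitters' processing notes name. The files deposited by the authors hold estimated counts of each gene, not normalized, and for each transcript its estimated count and its TPM, which is scaled to transcript length and to the library total. Total counts per mouse were 36676963 to 58662617 (mean 46.39 M). For all 7 members the gene count equalled the sum of its transcripts within rounding.

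Counts were rounded to whole numbers, and genes that reached 0.5 CPM in 1 mouse or more were scaled by TMM and tested in 1 fit of the 4 groups with edgeR 4.0.16 (quasi-likelihood test with robust dispersions, two-sided, R 4.3.3), with Benjamini-Hochberg adjustment over all 16306 genes. Fold changes on CPM are fitted values with 95% confidence intervals. The study names a 2-fold limit and q under 0.05, and both the count with and without the fold limit are given. Alternatives were RLE and upper-quartile scaling, no filter or a stricter filter (0.5 CPM in at least 5 mice), DESeq2 1.42.0, limma 3.58.1 (voom, and log2(TPM + 1) with a pseudocount of 1 over 16109 genes), the 2 groups alone, a replicate block, and leaving out each mouse. The test was run on simulated data with known changes. All 20 mice were used, although the study states fewer in some groups.

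The members and the gene lists were chosen with earlier results of these data known, and 4 genes of the lists are not reported here and were left out of the list counts and of the ranking by likeness. All 7 members are named with their values. Of each list, genes that passed were named, at most the 4 with the largest change per list and comparison, and the 10 genes most like the members. Npc1l1, Fasn, the enzymes that did not pass under TDD feeding in SPF mice, Abca1 in CD mice and the genes that mark position along the intestine were named in addition, with their values seen. Replicate numbers were not used to pair the mice, since the labels do not say what they mark. Of 30 same-numbered pairs of mice from different groups, 5 had deviations that correlated above 0.1 (r from -0.38 to 0.26). Such values cannot exclude a shared cage or day. Promoters are those of RefSeq for GRCm38.p6.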

Additional observations from a re-analysis of the deposited data

Results flagged for a closer look

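Of 28 sets of 5 mice (7 genes in 4 groups), 4 held a mouse far from the other 4 of its group, by a gap of more than 0.710 of the range of the group. Chance flags about 1 in 20 such groups. Idi1 in CD+ABX mouse 4 was at 95.57 CPM, below the 104.8 to 108.1 CPM of the others. The same mouse had 144 CPM of Fabp6, the highest of all 20 mice. Insig1 in TDD mouse 5 was at 58.11 CPM, above the 47.81 to 49.82 CPM of the others, and without this mouse the log2 fold change of Insig1 under TDD feeding in SPF mice was 0.02. Srebf2 in TDD mouse 3 was at 147.4 CPM, where the others had 127.0 to 130.0 CPM. Srebf2 in CD+ABX mouse 5 was at 161.5 CPM, where the others had 133.9 to 140.4 CPM. None of these mice decided whether Insig1 under TDD feeding in SPF mice or Srebf2 passed the threshold. Without TDD mouse 3 or 5 the call of Idi1 under TDD feeding in SPF mice was lost, and without CD+ABX mouse 5 that of Fdps under ABX in CD mice.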

How the results depend on the processing

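In the following, values are given in the order TDD feeding in SPF mice, TDD feeding in ABX-treated mice, ABX in CD mice, ABX in TDD mice and interaction. With a 2-fold limit 298, 50, 367, 265 and 4 of all genes were called, and without it 2342, 268, 2060, 2505 and 6. Members passed in 5, 2, 6, 6 and 0 cases. For all genes, limma on log2(TPM + 1) gave 140, 25, 131 and 98 calls, and DESeq2 gave 98 for TDD feeding in ABX-treated mice. The interaction gave 0 calls with RLE scaling, no filter, the stricter filter, limma-voom or the replicate block, and 51 with DESeq2. Members that passed under TDD feeding in SPF mice were 3 with the 2 groups alone, where q was 0.0858 for Sqle and 0.0974 for Idi1. In ABX-treated mice they were 1 with upper-quartile scaling or no filter, where Lss was lost (as with limma on log2(TPM + 1)), and 5 with DESeq2 or the 2 groups alone. With the replicate block, where the labels do not say what the numbers mark, the counts were 27 of all genes and 0 members for TDD feeding in ABX-treated mice, and in the other 3 group comparisons the same number of members passed as without it. When single mice were left out, TDD feeding in ABX-treated mice gave 25 genes (without CD+ABX mouse 4) to 59 (without CD mouse 2) and 0 members (as without CD+ABX mouse 2) to 5 members (without CD mouse 2). ABX in TDD mice gave 163 genes (without TDD+ABX mouse 1) to 421 (without TDD+ABX mouse 5), and the interaction 0 to 12. Calls gained in this way were those of Hmgcs1 (without CD mouse 1 or 2), Idi1 (without CD mouse 1 or 2 or TDD mouse 4), Sqle (without CD mouse 2) and Insig1 (without TDD+ABX mouse 3) under TDD feeding in ABX-treated mice, and that of Srebf2 (without CD mouse 2) under ABX in CD mice. The counts for CD mice 1 and 2, chosen after seeing the data, ran from 7 to 12 for the other enzymes under ABX in CD mice, and from 0 to 5 (TDD feeding) and 3 to 7 (ABX) for members without overlap. No member changed sign in the 4 group comparisons. Interaction estimates near 0 did, with limma on log2(TPM + 1) for Hmgcs1 (0.022), Fdps (0.082) and Srebf2 (0.049), and with single mice left out for Idi1 (-0.072 to 0.102), Fdps (-0.139 to 0.071) and Srebf2 (-0.074 to 0.021). The cause of these shifts was not tested. Every member had 815 or more counts per mouse, and the effect of depth was not tested.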
